A study of Mus musculus with 16 samples.

Results

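Transcript levels in mouse cerebral cortex were compared between 2 mutations of the X-linked gene Aifm1: a knock-in that removes 1 amino acid from the protein, and Harlequin (Hq), which lowers the transcript. For each gene the quantity of interest was the effect of the knock-in minus the effect of Harlequin, on the log2 scale, and beside it the mean of both effects, called the shared effect. All 16 libraries of the series entered, 4 in each of 4 groups: Aifm1-KI, with arginine 200 of AIFM1 deleted; Aifm1-WT, its wild-type littermates; Hq-mut, Harlequin mutants of the stock labelled B6CBACa Aw-J/A-Aifm1Hq/J; and Hq-WT, the wild-type littermates of those. Every animal was about 180 days old after birth and untreated, and every sample carries the strain label C57BL/6, also in the Hq stock. Hq-mut and Hq-WT libraries of the same replicate number were compared within their pair, because they deviated together. Nothing in the labels ties each library to its own animal, and p-values therefore describe variation among these libraries, which may be technical.

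AIFM1 is a flavoprotein that sits in the intermembrane space of mitochondria and binds NADH. It holds and assists CHCHD4, the oxidoreductase that imports and folds small cysteine-bearing proteins, among them subunits and assembly factors of respiratory complex I. When released from mitochondria, AIFM1 takes part in cell death without caspases. Harlequin mice carry a proviral insertion in Aifm1 and lose neurons of the cerebellum and retina with age. An amino acid deletion can leave the transcript whole and alter the protein, which counts of reads per gene cannot show.

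The residue that the knock-in removes is shown here because the 2 mutations differ in kind at this gene. In the GENCODE M21 coding sequence of Aifm1, codon 200 of 612 is AGA, an arginine codon, in exon 5 of 16 at GRCm38 chrX:48497082-48497084, minus strand. The codon stands in capitals between 30 bases of reference sequence on each side:
Aifm1 codon 200: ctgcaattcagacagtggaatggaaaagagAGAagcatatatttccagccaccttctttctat

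Aifm1 (ENSMUSG00000036932, protein-coding) had the largest test statistic of the difference. Its level was 21.6, 22.8, 23.1 and 23.3 CPM (TMM-normalised read counts, from edgeR's cpm function) in the 4 Aifm1-WT libraries and 22, 24.7, 26.2 and 22.9 CPM in Aifm1-KI. In the other line it was 23.2, 25.4, 24 and 23.6 CPM in Hq-WT and 3.75, 2.14, 3.3 and 3.97 CPM in Hq-mut. Levels of Aifm1-KI overlapped those of its wild types, and all 4 Hq-mut libraries lay below all 12 others. The log2 fold change was 0.08 (SE 0.11) for the knock-in and -2.89 (SE 0.13) for Harlequin, so the effects differed by 2.96 (SE 0.17, edgeR adjusted p = 3.43e-06). The wild types of both lines differed by 0.07 (Hq-WT minus Aifm1-WT, edgeR adjusted p = 0.713).

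Libraries differed within groups as well as between them. The shallowest library, Hq-WT 3, held 10671580 counts and the deepest, Aifm1-KI 2, 32551594, and a count of 0 allowed a level of up to 0.283 and 0.0882 CPM, taking 3 counts as the limit and covering counting error only. The Y-linked gene Ddx3y was at 64.8 to 83.7 CPM in every library. Summed levels of 12 striatal markers were 351 to 399 CPM in Aifm1-WT and 401 to 476 CPM in Hq-WT, but 509, 927, 390 and 860 CPM in Aifm1-KI 1 to 4 and 542, 373, 1110 and 467 CPM in Hq-mut 1 to 4. Fits without the libraries high in striatal markers left out Aifm1-KI 2 and 4, Hq-mut 3 and its partner Hq-WT 3. At 449 CPM, Hq-WT 3 was not high itself. Choroid plexus markers summed to 3800 CPM in Aifm1-KI 2 and 6340 CPM in Hq-WT 2, against 183 to 777 CPM elsewhere. Fits without the libraries high in choroid plexus markers left out these and Hq-mut 2, at 599 CPM, the partner of Hq-WT 2. They kept Aifm1-WT 4, at 777 CPM. Aifm1-WT 1 and 2 held liver transcripts at summed levels of 418 and 488 CPM, against 2.3 to 51.2 CPM elsewhere. Summed complex I subunits stood at 2660 and 3460 CPM in Hq-WT 2 and Hq-mut 2, against 1660 to 1880 CPM elsewhere. In bulk tissue, fewer cells of a type and less RNA per cell cannot be told apart.

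Over all genes the estimated effects of both mutations showed little correlation. Across 19129 genes tested, which are not independent replicates, the effect of the knock-in and that of Harlequin had a Pearson r of 0.026 and a Spearman rho of -0.054. The median absolute effect was 0.114 for the knock-in and 0.11 for Harlequin, against median SEs of 0.131 and 0.133. Estimates this close to their error keep a correlation low, so it does not show that the mutations act unlike each other. The difference passed an edgeR adjusted p under 0.05 for 2 genes (0.0105% of genes tested), Aifm1 and the pseudogene Gm6166, and 1994 genes (10.4%) had an unadjusted p under 0.05, 1140 (5.96%) with the knock-in effect above the Harlequin effect and 854 (4.46%) below it. The shared effect passed for 7 genes (0.0366%), with 1847 (9.66%) at an unadjusted p under 0.05, 1074 (5.61%) of them higher and 773 (4.04%) lower. The Harlequin effect alone passed for 3 genes (0.0157%), Aifm1, Gm6166 and Edn1, and the knock-in effect for 0 (lowest edgeR adjusted p = 0.208), with 1648 (8.62%) and 2219 (11.6%) at an unadjusted p under 0.05. For the knock-in, the likelihood ratio test of edgeR called 228 genes, DESeq2 137 and limma-voom 0. Without Aifm1-KI 3, edgeR called 667 genes for the knock-in effect and 47 for the shared effect, and without Aifm1-WT 4 it called 32 for the knock-in effect.

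**Figure D1:**
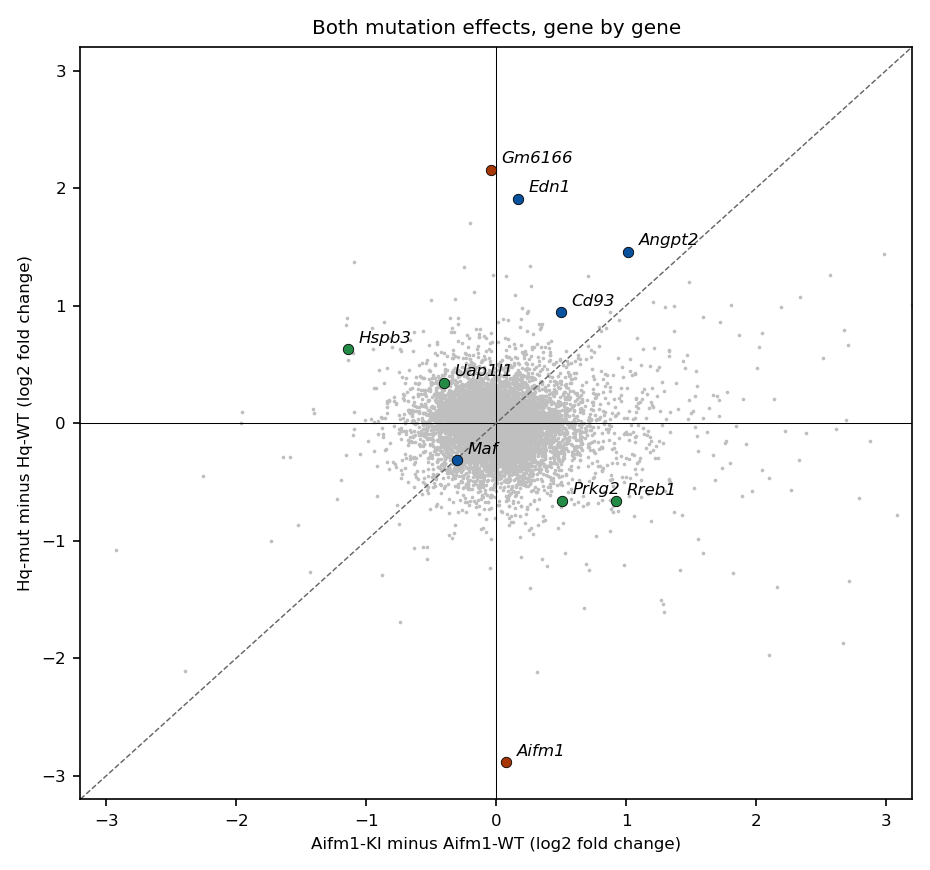
Effect of the knock-in (x axis) against that of Harlequin (y axis), both in log2 fold change, for the 16030 genes with a mean log2 CPM of at least 0. Points on the dashed line have equal effects; 10 genes lie outside the axes, which end at 3.2, and Aifm1, Gm6166 and Edn1 lie close to the vertical line while Maf, Cd93 and Angpt2 lie near the dashed one.

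Of 19129 genes tested, 197 had an unadjusted p under 0.05 in both lines, and these went both ways. That level was reached by 11.6% of genes for the knock-in and 8.62% for Harlequin. Such shares give some overlap even where effects are unrelated, so the number is not read as a common response. Of the 197 genes, 69 were higher in both mutants and 52 lower in both, 47 were higher in Aifm1-KI and lower in Hq-mut, and 29 the reverse. The median SE of the difference was 0.187, and its 95% interval lay within 0.5 log2 units of 0 for 7974 genes (41.7%). For the other genes these libraries leave room for a difference larger than that, so a gene that missed the threshold is not shown to respond alike.

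Gm6166 (ENSMUSG00000074280), a processed pseudogene of Fabp5, the brain and skin fatty acid-binding protein gene, was the only gene besides Aifm1 called for the difference. It falls outside the rule for naming genes, which leaves out predicted genes, and was chosen after its values were seen. Its copy of the Fabp5 transcript is 409 bases long, with 402 of 407 aligned bases identical (98.8%), 5 mismatches and 2 gap bases. Of its 359 windows of 51 bases, the length of 1 read, 180 (50.1%) also occur in Fabp5 transcripts, so reads from those cannot be assigned to one of the genes. Both sequences are shown for 90 bases around a pair of mismatches, which stand in capitals, since only such bases tell the genes apart; Gm6166 is read at GRCm38 chr9:57484223-57484312 and Fabp5 at chr3:10015478-10015567, both on the plus strand:
Gm6166: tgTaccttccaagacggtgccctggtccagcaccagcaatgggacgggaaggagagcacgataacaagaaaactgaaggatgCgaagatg
Fabp5: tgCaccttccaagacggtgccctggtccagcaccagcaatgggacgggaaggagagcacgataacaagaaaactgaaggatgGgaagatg

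Gm6166 was at 1.72, 1.42, 1.38 and 1.59 CPM in Aifm1-WT and 1.5, 1.62, 1.11 and 1.58 CPM in Aifm1-KI. It was at 1.64, 1.57, 1.32 and 1.62 CPM in Hq-WT and 9.16, 8.63, 4.75 and 5.48 CPM in Hq-mut. All 4 Hq-mut libraries were above the other 12, among which the groups overlapped. The Harlequin effect was 2.16 (SE 0.17, edgeR adjusted p = 6.27e-05), the knock-in effect -0.04 (SE 0.18), and the difference -2.20 (SE 0.24, edgeR adjusted p = 0.00458). Without Aifm1-WT 1 and 2, the libraries high in liver transcripts, the difference was -2.17 with an adjusted p of 0.106. Fabp5 itself, chosen after its values were seen, was at 12.4 ± 0.328 CPM in Aifm1-WT, 12.9 ± 0.396 in Aifm1-KI, 12.1 ± 1.13 in Hq-WT and 10.4 ± 3.65 in Hq-mut (SD, n = 4 each). The difference of its effects was 0.32 (SE 0.17, edgeR adjusted p = 0.511).

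Edn1, which encodes the vasoconstrictor peptide endothelin 1, rose in Hq-mut. Its level was 1.77, 3.12, 2.26 and 1.54 CPM in Aifm1-WT and 1.98, 2.76, 2.38 and 2.59 CPM in Aifm1-KI. In Hq-WT it was 2.14, 1.92, 2.36 and 3.04 CPM and in Hq-mut 7.71, 10.6, 8.87 and 8.32 CPM. The Hq-mut libraries were all above the rest, and the other groups overlapped. The Harlequin effect was 1.91 (SE 0.21, edgeR adjusted p = 0.0035) and the knock-in effect 0.17 (SE 0.22, edgeR adjusted p = 0.82). Their difference of -1.74 (95% interval -2.41 to -1.08) did not pass over all genes (edgeR adjusted p = 0.281), although DESeq2 gave it an adjusted p of 0.00194. Without Hq-mut 2 the Harlequin effect was 1.72 with an edgeR adjusted p of 0.0549. The shared effect of Edn1 passed too, at 1.04 (edgeR adjusted p = 0.0374), and rests on Hq-mut. That call held without Aifm1-WT 2, Aifm1-KI 1 or Aifm1-KI 3 and was lost without any 1 of the other 13 libraries, with an adjusted p of up to 0.195, and that p was 0.863 once striatal marker levels entered the fit.

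For the endothelin receptors, chosen after their values were seen, the difference of the effects is given. Ednra, the receptor of smooth muscle, differed by -0.04 (SE 0.21) from means of 3.68 CPM in Aifm1-WT and 3.32 CPM in Hq-WT. Ednrb, the receptor of endothelium and astrocytes, differed by 0.21 (SE 0.21) from means of 45.9 and 50.2 CPM. Among the 23 tested members of the list of hypoxia-linked targets and the endothelin system, 2 were at an unadjusted p under 0.05 for the difference in each direction (17.4% in all, against 10.4% of all genes tested). Their median difference was -0.05 against 0.0069 over all genes tested, and it was -0.14 without Hq-WT 4 and -0.02 without Hq-mut 2. Besides Edn1, these included Vegfa, the vascular growth factor gene, with a knock-in effect of 0.00 and a Harlequin effect of -0.37 (SE 0.09), and Bnip3, a mitophagy receptor gene, with -0.36 (SE 0.10) and 0.20 (SE 0.10). Both differences had an edgeR adjusted p of 0.45.

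**Figure D2:**
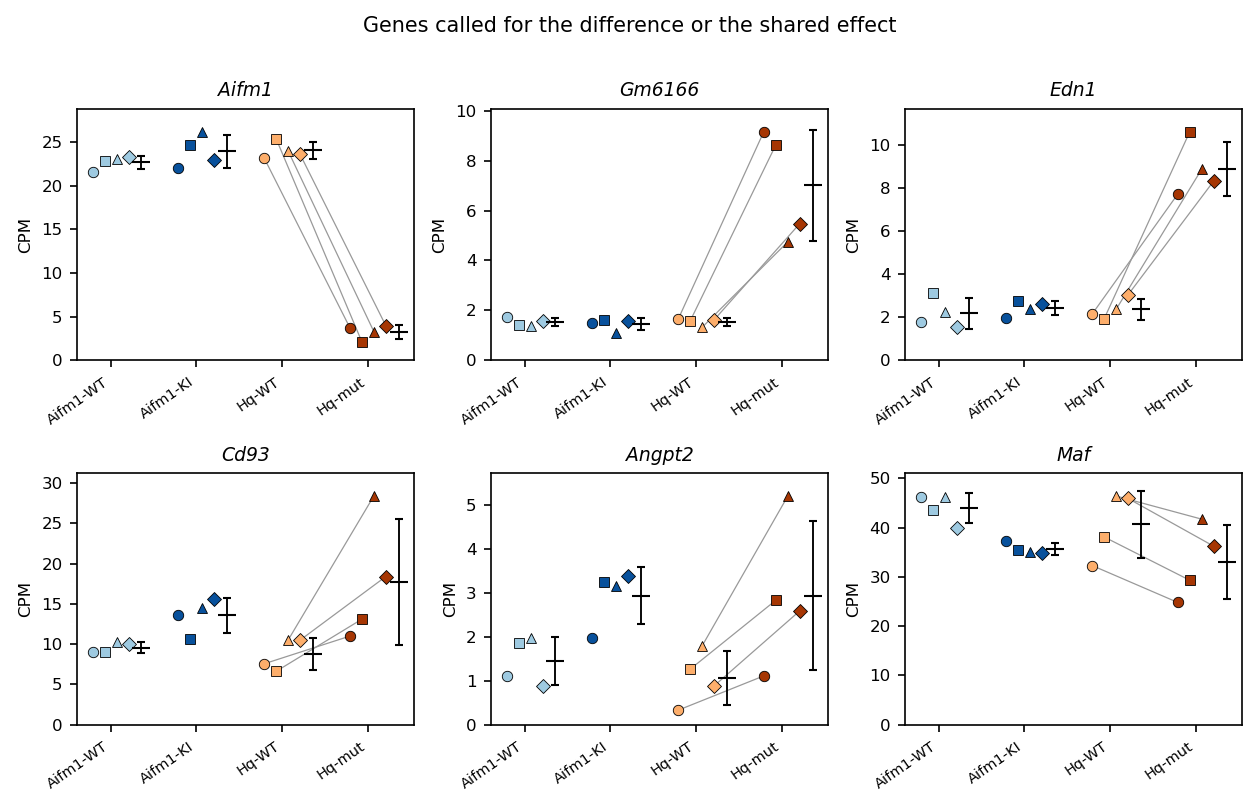
CPM of 6 genes in each library by group (circle, square, triangle and diamond are replicates 1 to 4; grey lines join Hq pairs; black bars are the mean and SD of 4 libraries). Hq-mut stands apart for Aifm1 (2.14 to 3.97 CPM), Gm6166 (4.75 to 9.16 CPM) and Edn1 (7.71 to 10.6 CPM), while Cd93 and Angpt2 were higher and Maf lower in both mutants.

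The genes with the next smallest p for the difference mostly had effects of opposite sign in the lines. None passed over all genes, and values are given as a description. In 5 of them the knock-in value lay below its wild types and the Harlequin value above.

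Uap1l1 encodes a relative of the enzyme that makes UDP-N-acetylglucosamine. It was at 12.2, 11.4, 12.2 and 11.2 CPM in Aifm1-WT, 9.48, 7.82, 9.96 and 8.5 CPM in Aifm1-KI, 9.75, 14.4, 9.52 and 9.4 CPM in Hq-WT and 12.9, 19, 11.5 and 11.4 CPM in Hq-mut. The knock-in libraries did not overlap their wild types, which 2.35% of all genes tested show in that direction, and each Hq-mut library was above its own pair. The difference was -0.75 (95% interval -1.01 to -0.48, edgeR adjusted p = 0.235), the lowest adjusted p among genes not called. Hq pair 2, the pair with the highest complex I sums, was also the highest for Uap1l1, and without that pair and Aifm1-KI 2 the difference was -0.66.

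Adgrf5, an adhesion receptor gene of endothelium, was at 36, 42.3, 43 and 35.8 CPM in Aifm1-WT and 35.1, 31.7, 30.8 and 32.8 CPM in Aifm1-KI. It was at 37.7, 33.7, 44.4 and 43.8 CPM in Hq-WT and 46.3, 40.2, 58.6 and 55 CPM in Hq-mut. Every Hq-mut library exceeded its pair, by an effect of 0.32 (SE 0.07), while the knock-in effect was -0.27 (SE 0.07). The difference was -0.59 (95% interval -0.81 to -0.37, edgeR adjusted p = 0.281). Means of both wild types were close, at 39.3 and 39.9 CPM.

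Hgsnat encodes a lysosomal enzyme of heparan sulfate breakdown. Its level was 39.6 to 43.3 CPM in Aifm1-WT, 36.8 to 38.3 CPM in Aifm1-KI, 40.6 to 44.4 CPM in Hq-WT and 47 to 54.2 CPM in Hq-mut, with no overlap in either line. All 4 Hq-mut libraries lay above all 4 Hq-WT libraries, as in 0.727% of genes tested. The difference was small and tight, at -0.38 (95% interval -0.54 to -0.23, edgeR adjusted p = 0.337).

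Hspb3, a small heat shock protein gene, was at 1.67, 1.94, 1.6 and 1.46 CPM in Aifm1-WT and 0.91, 0.412, 1.11 and 0.789 CPM in Aifm1-KI. In Hq-WT it was at 0.986, 2.12, 0.849 and 2.06 CPM and in Hq-mut at 1.32, 3.44, 1.54 and 3.09 CPM. The Hq groups overlapped widely and separated only within pairs, where each mutant was the higher library. The difference was -1.77 (95% interval -2.50 to -1.05, edgeR adjusted p = 0.337).

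Sema3c, which encodes a secreted guidance cue, had a knock-in effect of -0.28 (SE 0.08) from 30 ± 2.23 CPM in Aifm1-WT and a Harlequin effect of 0.32 (SE 0.08) from 36.7 ± 9.31 CPM in Hq-WT (SD, n = 4 each). The difference was -0.59 (95% interval -0.84 to -0.34, edgeR adjusted p = 0.337).

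In the other direction, 5 genes had knock-in values above their wild types and Harlequin values below. Rreb1, a zinc finger transcription factor gene of Ras signalling, was at 54.4, 65, 76 and 78.7 CPM in Aifm1-WT and 86, 189, 112 and 131 CPM in Aifm1-KI. In Hq-WT it was at 74.5, 32.2, 62.3 and 41.8 CPM and in Hq-mut at 32, 16.5, 54 and 34.7 CPM. All 4 knock-in libraries were above their wild types, as in 2.57% of genes tested, and each Hq-mut library was below its pair. The difference was 1.58 (95% interval 0.90 to 2.26, edgeR adjusted p = 0.337). Its highest knock-in values came from Aifm1-KI 2 and 4, the libraries highest in striatal markers; without these and Hq pair 3 the difference was 1.34.

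Prkg2, a cGMP-dependent protein kinase gene, also followed those libraries. It was at 17.6, 17.7, 18.9 and 17.7 CPM in Aifm1-WT and 17.7, 34.7, 19.2 and 29.1 CPM in Aifm1-KI. In Hq-WT it was at 28.6, 20.6, 22.3 and 29.6 CPM and in Hq-mut at 16.6, 12.2, 18.5 and 16.9 CPM. Aifm1-KI 1 and 3 were close to the wild types, and Hq-mut lay wholly below Hq-WT, as in 0.993% of genes tested. The difference was 1.16 (SE 0.25, edgeR adjusted p = 0.444), and 0.82 (adjusted p = 0.0643) without the libraries high in striatal markers.

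Etv4, an ETS transcription factor gene, was at 8.65, 9.07, 8.65 and 8.21 CPM in Aifm1-WT and 9.53, 10, 11.4 and 10.9 CPM in Aifm1-KI, against 9.09, 7.63, 12.2 and 11.2 CPM in Hq-WT and 6.86, 6.45, 7.55 and 9.2 CPM in Hq-mut. The difference was 0.67 (SE 0.14, edgeR adjusted p = 0.337). Taf15, which encodes an RNA-binding protein of the FET family, had some of the tightest groups, with 51.8 to 57.4 CPM in Aifm1-WT, 59.4 to 66.5 CPM in Aifm1-KI, 48.2 to 53.7 CPM in Hq-WT and 41.2 to 48 CPM in Hq-mut. Its effects were 0.19 (SE 0.06) and -0.20 (SE 0.06), and the difference 0.39 (edgeR adjusted p = 0.404). Cadm1, a synaptic adhesion molecule gene, went from 246 ± 6.84 to 285 ± 22.5 CPM in the knock-in line and from 239 ± 14 to 198 ± 30.6 CPM in the Harlequin line (SD, n = 4 each). Its difference was 0.49 (SE 0.10, edgeR adjusted p = 0.404).

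**Figure D3:**
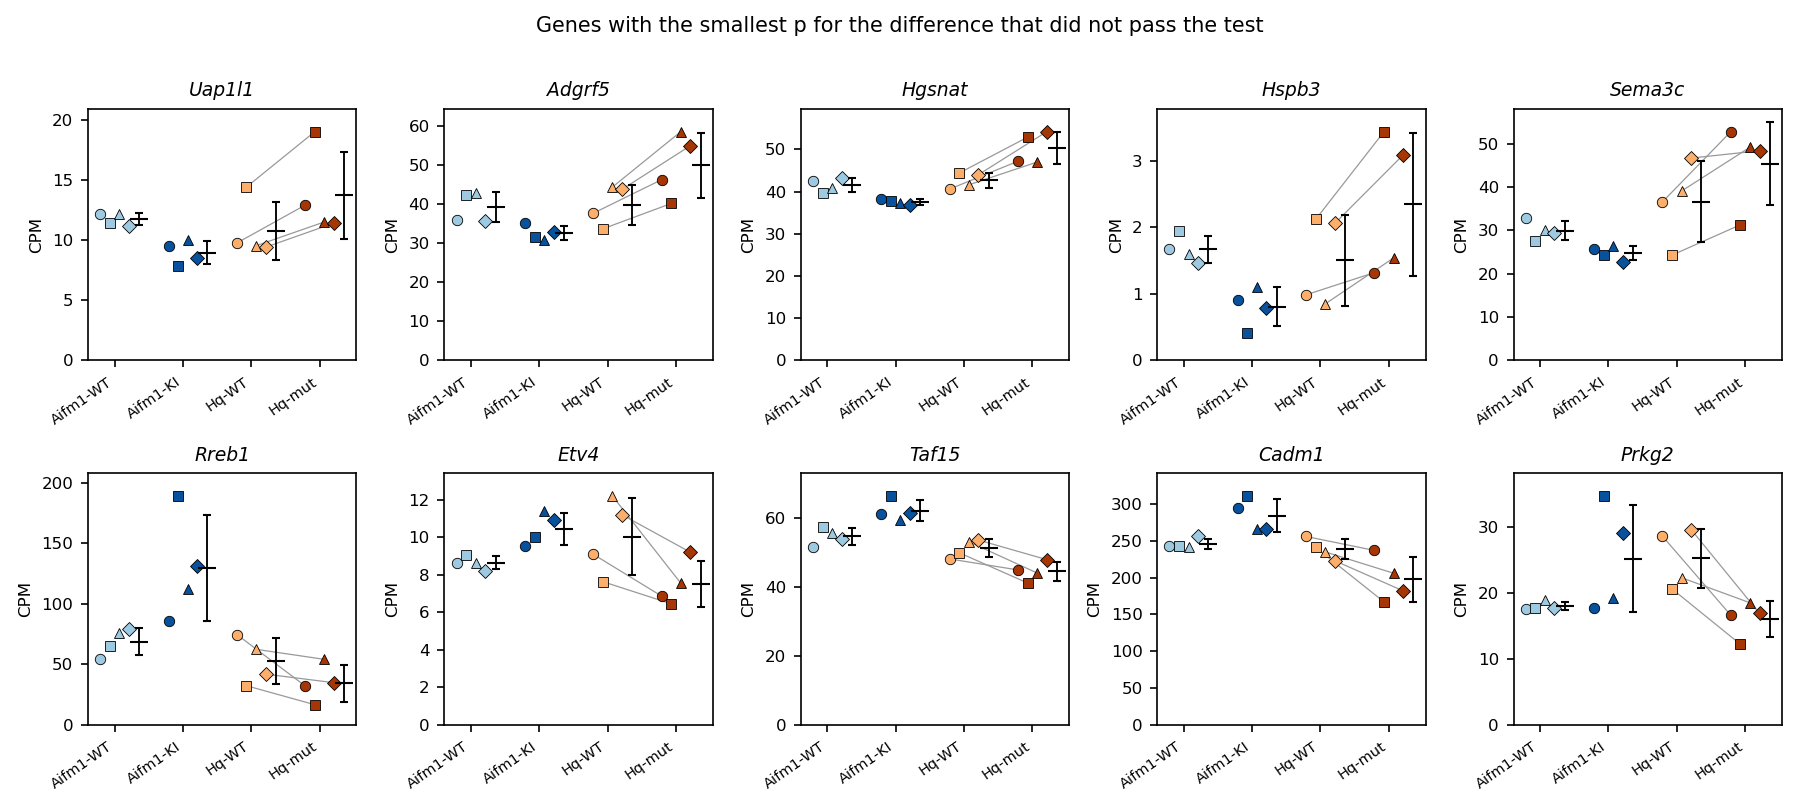
CPM by library and group (replicates 1 to 4 as circle, square, triangle and diamond; grey lines join Hq pairs; bars are mean and SD, n = 4) for 10 genes that did not pass. In the upper row every Aifm1-KI library lies below its wild types and each Hq-mut library above its pair, from Uap1l1 (difference -0.75) to Sema3c (-0.59); in the lower row the means go the other way, from Rreb1 (1.58) to Prkg2 (1.16), where Aifm1-KI 1 lies among the wild types and Aifm1-KI 3 just above them.

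The shared effect passed for 4 genes in the higher direction (0.0209% of genes tested) and 3 in the lower (0.0157%). In Aifm1, Gm6166 and Edn1 it came from Harlequin alone. The remaining 4 were Cd93, Angpt2, Maf and Cnpy1. These were called for the shared effect under 14, 9, 9 and 13 of 28 alternatives, in that order. Once striatal marker levels entered the fit, Aifm1 alone was called for the shared effect, so all 4 lost their calls there.

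Cd93 encodes a C-type lectin-like receptor of endothelial cells. It was at 8.98, 9.07, 10.3 and 9.97 CPM in Aifm1-WT and 13.6, 10.6, 14.5 and 15.6 CPM in Aifm1-KI. It was at 7.56, 6.62, 10.5 and 10.5 CPM in Hq-WT and 11, 13.1, 28.4 and 18.4 CPM in Hq-mut. Neither mutant group overlapped its wild types. The knock-in effect was 0.50 (SE 0.14) and the Harlequin effect 0.94 (SE 0.14), and their mean of 0.72 (SE 0.10) passed (edgeR adjusted p = 0.0238). The difference was -0.45 (95% interval -0.87 to -0.02, edgeR adjusted p = 0.476). Leaving out Aifm1-KI 1, 2 or 3, Hq-WT 1 or Hq-mut 1 kept the call, and leaving out any 1 of the other 11 libraries gave an adjusted p over 0.05, up to 0.0906, with values of 0.64 to 0.78 in all 16 cases.

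Angpt2 encodes angiopoietin 2, a ligand of the endothelial receptor TEK (Tie2). It was at 1.1, 1.86, 1.98 and 0.883 CPM in Aifm1-WT and 1.98, 3.24, 3.15 and 3.38 CPM in Aifm1-KI. It was at 0.329, 1.26, 1.79 and 0.882 CPM in Hq-WT and 1.11, 2.83, 5.2 and 2.59 CPM in Hq-mut. Every Hq-mut library exceeded its pair, and the lowest knock-in library was level with the highest wild type. The effects were 1.02 (SE 0.25) and 1.46 (SE 0.27), with a mean of 1.24 (SE 0.19, edgeR adjusted p = 0.0374) and a difference of -0.44 (95% interval -1.25 to 0.36). The call held without Aifm1-KI 1 or Aifm1-KI 3 and was lost without any 1 of the other 14 libraries, with an adjusted p of up to 0.219 and values of 1.15 to 1.32.

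Tek itself went the other way in both lines. It was at 13.5 ± 1.78 CPM in Aifm1-WT, 9.68 ± 1.18 in Aifm1-KI, 15.2 ± 4.45 in Hq-WT and 11.4 ± 2.45 in Hq-mut (SD, n = 4 each). Effects were -0.48 (SE 0.12) and -0.39 (SE 0.12), and the shared effect of -0.44 did not pass (edgeR adjusted p = 0.166). Tek was chosen after its values were seen, as was Flt1, a receptor gene for vascular growth factors, with a shared effect of -0.32 (SE 0.07, edgeR adjusted p = 0.239).

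Maf, a bZIP transcription factor gene, had nearly equal effects. It was at 46.3, 43.6, 46.1 and 39.9 CPM in Aifm1-WT and 37.3, 35.4, 35 and 34.8 CPM in Aifm1-KI. It was at 32.3, 38.1, 46.4 and 45.9 CPM in Hq-WT and 24.8, 29.3, 41.7 and 36.2 CPM in Hq-mut. The knock-in libraries were all below their wild types, and each Hq-mut library was below its pair. The effects were -0.30 (SE 0.06) and -0.32 (SE 0.06), with a shared effect of -0.31 (SE 0.05, edgeR adjusted p = 0.0374) and a difference of 0.01 (95% interval -0.18 to 0.21). The call held without Aifm1-WT 4, Aifm1-KI 1 or Aifm1-KI 3 and was lost without any 1 of the other 13 libraries, with an adjusted p of up to 0.145 and values of -0.33 to -0.30.

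Cnpy1 (shared edgeR adjusted p = 0.0199) had too few counts for the rule and was chosen after its values were seen. It was at 1.15, 0.81, 1.54 and 1.06 CPM in Aifm1-WT and 0.375, 0.471, 0.0852 and 0.219 CPM in Aifm1-KI, a knock-in effect of -1.80 (SE 0.38). In the Hq line only Hq-WT 3, at 2.83 CPM, stood above 0.11 CPM, and Hq-mut libraries held 0 to 1 counts, so no fold is given there. Without Hq-WT 3 the shared effect had an edgeR adjusted p of 0.51, and the call was also lost without Aifm1-WT 1 or 3, Aifm1-KI 4, Hq-WT 1 or 4, or Hq-mut 1, 3 or 4.

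Other genes with small p for the shared effect did not pass. Socs3, the feedback inhibitor of cytokine signalling, was at 6.28 ± 0.488 CPM in Aifm1-WT, 4.38 ± 0.535 in Aifm1-KI, 5.36 ± 0.546 in Hq-WT and 3.73 ± 0.885 in Hq-mut (SD, n = 4 each). Its effects were -0.53 (SE 0.14) and -0.55 (SE 0.14), with a difference of 0.02 (95% interval -0.40 to 0.44) and a shared edgeR adjusted p of 0.165. Agmat, the agmatinase gene, was at 1.77 to 2.96 CPM in Aifm1-WT, 0.353 to 1.23 in Aifm1-KI, 1.48 to 3.23 in Hq-WT and 0.511 to 1.57 in Hq-mut, with a shared effect of -1.37 (SE 0.24, edgeR adjusted p = 0.102). Slc23a3, an orphan member of the ascorbate transporter family, had a shared effect of -1.22 (SE 0.21, edgeR adjusted p = 0.1), and Slco1c1, the thyroid hormone transporter gene of brain vessels, one of -0.30 (SE 0.05, edgeR adjusted p = 0.15). For Slco1c1 the wild types were at 59 ± 4.09 CPM in Aifm1-WT and 81.2 ± 10.3 in Hq-WT, while the mutants were at 53.1 ± 5.36 in Aifm1-KI and 59 ± 5.35 in Hq-mut (SD, n = 4 each). Its effects were -0.15 (SE 0.08) and -0.46 (SE 0.08).

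In the higher direction 3 genes were named by rule and did not pass. Nkain2, a partner of the sodium pump, had a shared effect of 0.33 (SE 0.06, edgeR adjusted p = 0.1) from wild-type means of 46.2 and 49.8 CPM. Tnr, tenascin R of perineuronal nets, had 0.31 (SE 0.06, edgeR adjusted p = 0.166), with Hq-WT 2 and Hq-mut 2 at 146 and 138 CPM against 254 to 368 CPM in the other Hq libraries. Matn2, a matrix adaptor gene, had 0.43 (SE 0.08, edgeR adjusted p = 0.191).

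Genes of respiration had small effects of opposite sign. Of 36 complex I subunit genes, 29 were lower in Aifm1-KI and higher in Hq-mut, and the median was -0.04 for the knock-in, 0.08 for Harlequin and -0.13 for the difference. An unadjusted p under 0.05 for the difference was found in 4, all lower (11.1% of the list, against 10.4% of all genes tested), and the 95% interval lay within 0.5 log2 units of 0 in 30. Ndufv1, the flavoprotein subunit that binds NADH, had the smallest p, with means of 115 and 106 CPM in Aifm1-WT and Aifm1-KI and 125 and 143 CPM in Hq-WT and Hq-mut, and a difference of -0.29 (SE 0.11, edgeR adjusted p = 0.458). The median rested on Hq pair 2: without Hq-WT 2 or without Hq-mut 2 the median Harlequin effect was -0.04 and the difference -0.01.

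The 38 nuclear genes of complexes II to V showed the same arrangement. In 32 the knock-in value was lower and the Harlequin value higher, with medians of -0.07 and 0.10 and a difference of -0.16. For the difference, 4 were at an unadjusted p under 0.05, all lower (10.5% against 10.4% of all genes tested), with Uqcrc1, a core subunit of complex III, at -0.27 (SE 0.11, edgeR adjusted p = 0.458). Without Hq-WT 2 or Hq-mut 2 the median Harlequin effect was -0.04, on the same side of 0 as the knock-in, and the median difference -0.05. The 7 mitochondrially encoded genes tested went the other way, with a median difference of 0.18 and mt-Nd2, a complex I subunit gene, at 0.28 (SE 0.13, edgeR adjusted p = 0.478). That median was 0.06 to 0.25 with single libraries left out, lowest without Hq-WT 4, and -0.06 without the libraries high in striatal markers.

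AIFM1 acts on complex I through protein import, and 24 genes of complex I assembly and intermembrane-space import were tested. Their median difference was -0.09, with 1 gene at an unadjusted p under 0.05 in each direction (8.33% in all, against 10.4% of all genes tested). It was -0.01 without Hq-WT 2 or Hq-mut 2 and -0.16 without Hq-WT 4. Chchd4, the import partner of AIFM1, was at 27.2 ± 1.5 CPM in Aifm1-WT, 30.5 ± 2.78 in Aifm1-KI, 30.5 ± 6.85 in Hq-WT and 34.7 ± 9.82 in Hq-mut (SD, n = 4 each). Its effects were 0.17 (SE 0.07) in both lines, with a difference of -0.01 (95% interval -0.23 to 0.22) and a shared edgeR adjusted p of 0.367; it was chosen after its values were seen.

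**Figure D4:**
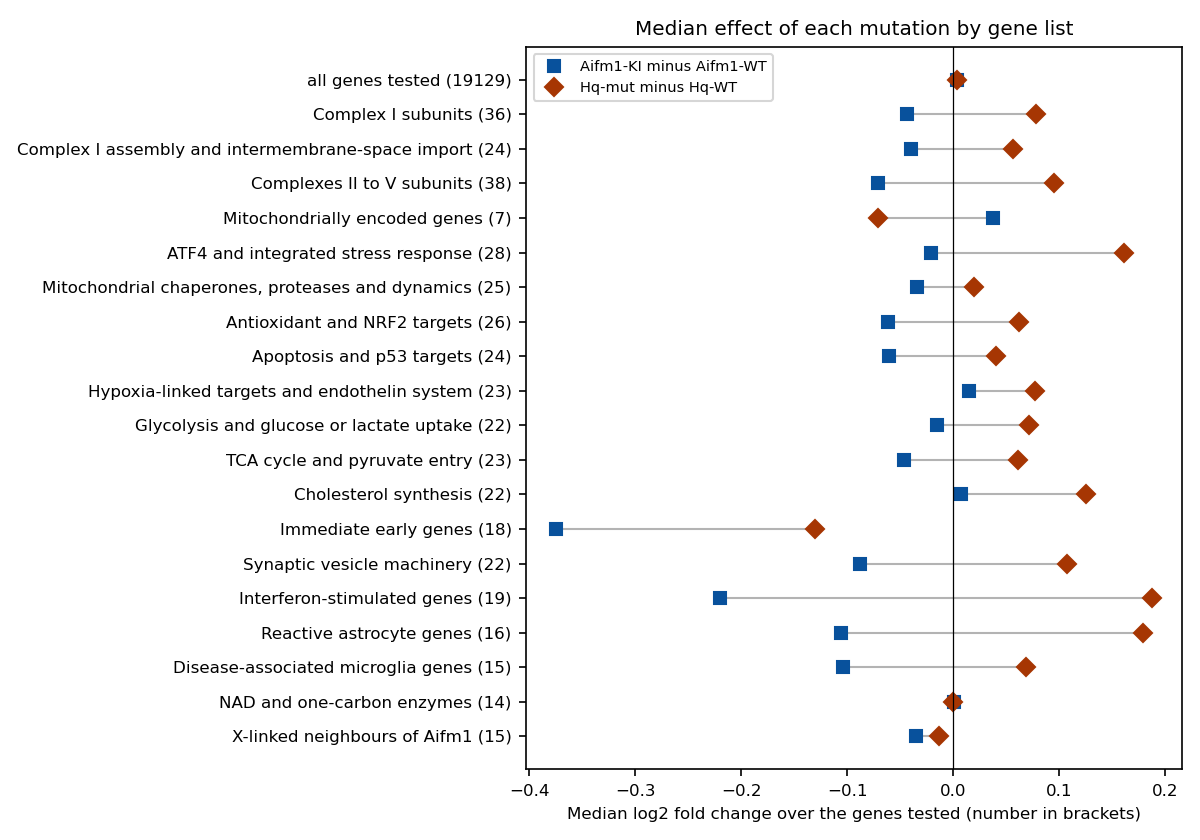
Median log2 fold change of each of the 19 pathway lists for the knock-in (squares) and for Harlequin (diamonds), with the number of genes tested in brackets. Medians over all 19129 genes tested are 0.0039 and 0.0031, and most of these lists have the square left of 0 and the diamond right of it, widest among them for interferon-stimulated genes (-0.22 and 0.19).

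Targets of ATF4 and the integrated stress response, the program that cells start when mitochondrial or endoplasmic reticulum function fails, lay higher in Hq-mut than in Aifm1-KI. Of 28 genes tested, 23 had a lower effect in the knock-in, 7 of them at an unadjusted p under 0.05 and 0 in the other direction (25% against 10.4% of all genes tested). Medians were -0.02 for the knock-in, 0.16 for Harlequin and -0.19 for the difference, and leaving out single libraries gave -0.26 to -0.12, the latter without either library of Hq pair 2. Atf5, a transcription factor gene of mitochondrial stress, was at 19.3, 20.3, 19.3 and 18.8 CPM in Aifm1-WT, 16, 17.1, 21.5 and 18.8 CPM in Aifm1-KI, 14.1, 17, 25.4 and 19.9 CPM in Hq-WT and 17.7, 30.7, 30.6 and 24 CPM in Hq-mut. Each Hq-mut library exceeded its pair, and the difference was -0.53 (SE 0.15, edgeR adjusted p = 0.45).

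Other members of that list are given as values and were chosen after these were seen. Trib3, a pseudokinase gene, was at 0.309 to 0.527 CPM in Aifm1-WT, 0.107 to 0.511 in Aifm1-KI, 0.0548 to 0.471 in Hq-WT and 0.809 to 1.27 in Hq-mut, with 19 to 31 counts per Hq-mut library. Its difference was -2.11 (SE 0.64, edgeR adjusted p = 0.45). Asns, asparagine synthetase, had effects of 0.17 (SE 0.07) and 0.29 (SE 0.07), and Aldh1l2, a mitochondrial folate enzyme, 0.55 (SE 0.18) and 0.51 (SE 0.18), with shared edgeR adjusted p values of 0.248 and 0.261. Ddit3, which encodes CHOP, had effects of -0.25 (SE 0.12) and -0.01 (SE 0.11).

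No gene of mitochondrial upkeep, redox defence or cell death passed for the difference. Among 25 genes of mitochondrial chaperones, proteases and dynamics the median difference was -0.08 (-0.05 without Hq-WT 2 or Hq-mut 2), with 2 at an unadjusted p under 0.05, both lower (8% against 10.4% of all genes tested), and Dnaja3, a matrix co-chaperone, at -0.22 (SE 0.07, edgeR adjusted p = 0.45). Among 26 antioxidant and NRF2 genes the median was -0.14, with 5 at an unadjusted p under 0.05, all lower (19.2% against 10.4%). Gsr, glutathione reductase, was at 24.5 ± 1.84, 22 ± 1.04, 30.8 ± 2.71 and 36.8 ± 6.76 CPM in Aifm1-WT, Aifm1-KI, Hq-WT and Hq-mut (SD, n = 4 each), with a difference of -0.40 (SE 0.11, edgeR adjusted p = 0.45). One of the 5, Mgst1, was at 18.8 and 24.7 CPM in Aifm1-WT 1 and 2, the libraries high in liver transcripts, and at 2.65 to 7.06 CPM in the others.

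Among 24 genes of apoptosis and p53 targets, 2 were at an unadjusted p under 0.05 in each direction (16.7% in all, against 10.4% of all genes tested). The median was -0.08, and it was -0.17 without Hq-WT 4 and -0.05 without Aifm1-WT 4. Apaf1, the apoptosome scaffold gene, was at 14.1 ± 1.62, 22.3 ± 7.86, 13.4 ± 6.13 and 11.8 ± 1.77 CPM in the same order of groups (SD, n = 4 each), with a difference of 0.81 (SE 0.31, edgeR adjusted p = 0.45). Aifm1-KI 2 and 4 were highest at 32.1 and 24.2 CPM, and without the libraries high in striatal markers the difference was 0.49.

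The lists of fuel metabolism held no called gene either. Of 22 genes of glycolysis and glucose or lactate uptake, 2 were higher and 4 lower for the difference at an unadjusted p under 0.05 (27.3% against 10.4% of all genes tested), with a median of -0.10, or -0.05 without Aifm1-WT 1 and 2. Gapdh, a glycolytic enzyme gene with many processed copies whose reads may be split, was at 9.91 ± 0.938, 10.1 ± 1.14, 9.78 ± 0.942 and 7.02 ± 1 CPM in Aifm1-WT, Aifm1-KI, Hq-WT and Hq-mut (SD, n = 4 each), a difference of 0.50 (SE 0.16, edgeR adjusted p = 0.45). Of 23 genes of the TCA cycle and pyruvate entry, 3 were at an unadjusted p under 0.05, all lower (13% against 10.4%), with a median of -0.12 and Mdh1, cytosolic malate dehydrogenase, at -0.28 (SE 0.10, edgeR adjusted p = 0.45). Among 14 NAD and one-carbon enzymes the median was -0.01, within -0.05 to 0.07 with single libraries left out, and 0 were at an unadjusted p under 0.05 and 0 called, and Sirt1, an NAD-dependent deacetylase gene, had a difference of 0.21 (SE 0.10, edgeR adjusted p = 0.48).

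Cholesterol synthesis was the pathway list with the most members higher in both mutants. Of 22 genes, 11 were higher in both, against 4706 of all 19129 genes tested. For the difference 0 had an unadjusted p under 0.05, and for the shared effect 6 had one, all higher (27.3% against 9.66% of all genes tested). The Harlequin median was 0.13, with 20 genes higher and 2 lower. The knock-in median was 0.0075, with 12 genes higher and 10 lower. That median changed sign in 7 of 16 fits with a single library left out. Fdps, farnesyl diphosphate synthase, was at 3.15, 3.48, 3.09 and 3.22 CPM in Aifm1-WT and 4.23, 4.38, 3.92 and 4.47 CPM in Aifm1-KI, against 3.67, 3.69, 3.3 and 2.65 CPM in Hq-WT and 4.85, 5.84, 3.98 and 3.22 CPM in Hq-mut. The knock-in libraries were above all their wild types and each Hq-mut library above its pair. Effects were 0.40 (SE 0.11) and 0.41 (SE 0.12), with a difference of -0.02 (95% interval -0.37 to 0.33) and a shared edgeR adjusted p of 0.208. The list's median difference of -0.06 ran from -0.14 without Hq-WT 4 to -0.01 without Hq-mut 2. Sqle, squalene epoxidase, had effects of 0.15 (SE 0.07) and 0.20 (SE 0.07); both were chosen after their values were seen. Insig1, the sterol sensor's retention factor, had the smallest p for the difference in the list, at -0.33 (SE 0.19, edgeR adjusted p = 0.545).

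Interferon-stimulated genes had the widest split of the pathway lists. Of 19 tested, 16 were lower in Aifm1-KI and higher in Hq-mut, and 1 had the same sign in both lines. For the difference 9 were at an unadjusted p under 0.05, all lower (47.4% against 10.4% of all genes tested), and 0 were called. Medians were -0.22 for the knock-in, 0.19 for Harlequin and -0.49 for the difference, and single libraries left out gave -0.58 without Hq-WT 4 to -0.30 without either library of Hq pair 2. The wild types started unequal, with a median of -0.27 for Hq-WT minus Aifm1-WT. Summed levels of the list had means of 128 CPM in Aifm1-WT, 116 in Aifm1-KI, 116 in Hq-WT and 128 in Hq-mut. Each mutant mean was thus at the level of the other line's wild type. The part of the unequal wild types in the split was not tested. Most of these genes were at a few CPM, and 3 of the 19 intervals lay within 0.5 log2 units of 0.

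The split arose in unlike ways in Ifitm3, named by rule, and in Ifit1, chosen after its values were seen. Ifitm3, an antiviral membrane protein gene, was at 3.92, 4.78, 3.69 and 3.57 CPM in Aifm1-WT, 2.68, 3.56, 4.17 and 4.21 CPM in Aifm1-KI, 1.37, 2.53, 3.11 and 4.02 CPM in Hq-WT and 2.68, 5.39, 5.34 and 4.51 CPM in Hq-mut. Each Hq-mut library exceeded its pair, while the Aifm1 groups overlapped, and the difference was -0.87 (SE 0.26, edgeR adjusted p = 0.45). Ifit1, an RNA-binding effector gene, was at 3.11, 2.92, 3.47 and 1.59 CPM in Aifm1-WT, 1.23, 1.68, 1.11 and 1.49 CPM in Aifm1-KI, 0.986, 1.72, 1.98 and 2.3 CPM in Hq-WT and 1.49, 1.53, 2.04 and 1.96 CPM in Hq-mut. Here 3 Aifm1-WT libraries stood above all others and the Hq groups overlapped, with effects of -0.97 (SE 0.24) and 0.03 (SE 0.25) and a 95% interval of the difference from -1.74 to -0.26 (edgeR adjusted p = 0.45).

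Among glial activation genes the median effect was below 0 for the knock-in and above 0 for Harlequin. Members were divided. Of the reactive astrocyte genes tested, 7 were lower in Aifm1-KI and higher in Hq-mut. The same sign in both lines was found in 7 (43.8% against 47.5% of all genes tested). For Harlequin 4 of them were higher and 3 lower at an unadjusted p under 0.05. Their median for Hq-WT minus Aifm1-WT was -0.34. Of 16 reactive astrocyte genes tested, 4 were at an unadjusted p under 0.05 for the difference, all lower (25% against 10.4% of all genes tested), with a median of -0.27 that was -0.16 without Hq-WT 2 or Hq-mut 2. Vim, the intermediate filament vimentin, was at 32.2 ± 2.86 and 28.4 ± 2.62 CPM in Aifm1-WT and Aifm1-KI and 25.4 ± 5.48 and 32.9 ± 9.52 CPM in Hq-WT and Hq-mut (SD, n = 4 each), and its difference was -0.54 (SE 0.13, edgeR adjusted p = 0.45). Complement C3, another of the 4, was at 7.93 and 11.1 CPM in Aifm1-WT 1 and 2 and 0.128 to 1.65 CPM in the others, and the part of liver RNA in that was not tested. Of 15 genes of disease-associated microglia tested, 3 were at an unadjusted p under 0.05, all lower (20% against 10.4%), with a median of -0.14 that ran from -0.23 without Aifm1-KI 2 to -0.05 without Aifm1-KI 3, and Cd9, a tetraspanin gene, at -0.53 (SE 0.14, edgeR adjusted p = 0.45). General markers of astrocytes and microglia had median differences of 0.02 and -0.02, both of which changed sign with some single libraries left out, with Aldh1l1 at -0.26 (SE 0.13) and Aif1 at -0.49 (SE 0.20).

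**Figure D5:**
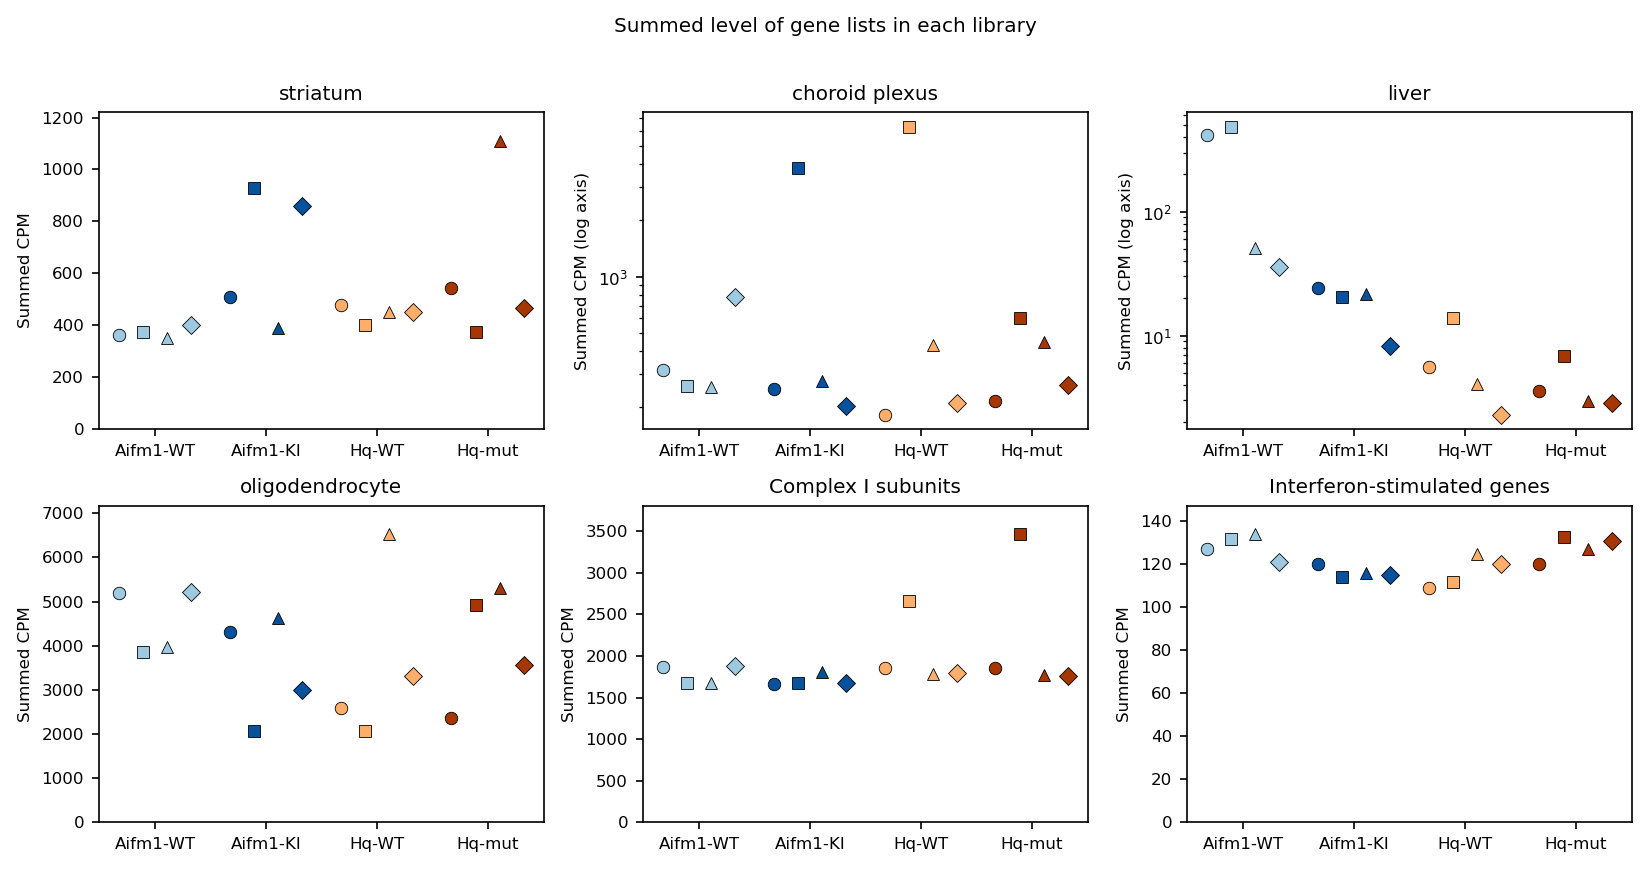
Summed CPM of 6 gene lists in each library (replicates 1 to 4 as circle, square, triangle and diamond in each group; log axis for choroid plexus and liver). Striatal markers were highest in Aifm1-KI 2 and 4 and Hq-mut 3 (860 to 1110 CPM), complex I subunits in both Hq libraries numbered 2 (2660 and 3460 CPM) and liver transcripts in Aifm1-WT 1 and 2 (418 and 488 CPM).

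Oligodendrocyte markers, genes of myelin, were lower in Aifm1-KI and higher in Hq-mut for 12 of 12, with medians of -0.42 and 0.28 and a difference of -0.67. Only 1, Aspa, the enzyme that breaks down N-acetylaspartate, had an unadjusted p under 0.05, 8.33% of the list against 10.4% of all genes tested (-0.83, SE 0.33, edgeR adjusted p = 0.458). Summed levels were 3850 to 5210 CPM in Aifm1-WT and 4310, 2060, 4630 and 2990 CPM in Aifm1-KI 1 to 4. In the Hq line they were 2600, 2080, 6520 and 3320 CPM in Hq-WT 1 to 4 and 2370, 4910, 5310 and 3570 CPM in Hq-mut 1 to 4. Pairs 1 and 3 had the lower sum in the mutant, and pair 2 had the widest gap, in the other direction. Without Hq-WT 2 or Hq-mut 2 the median difference was -0.35, and without Aifm1-KI 2 and that pair it was -0.18. The median Harlequin effect without either library of pair 2 was -0.05, so its direction rests on that pair. Precursor markers had a median difference of 0.22, with 3 of 8 at an unadjusted p under 0.05, all higher (37.5% against 10.4%), among them the proteoglycan gene Cspg4 at 0.51 (SE 0.18, edgeR adjusted p = 0.45). The median was 0.08 without Hq-WT 3 alone. It was 0.02 without the libraries high in striatal markers, a set that also leaves out Hq-WT 3.

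Medians of excitatory neuron markers and synaptic vesicle genes moved when the libraries high in striatal markers were left out. That of inhibitory neuron markers hardly did. Excitatory neuron markers had a median difference of -0.39, with 9 of 10 lower and 2 at an unadjusted p under 0.05 (20% against 10.4%). It was -0.16 without Aifm1-KI 2 and 0.02 without the libraries high in striatal markers. Neurod2, a transcription factor gene of cortical excitatory neurons, was at 129, 76.3, 118 and 108 CPM in Aifm1-KI 1 to 4 against 119 to 146 CPM in Aifm1-WT, with a difference of -0.49 (SE 0.18, edgeR adjusted p = 0.45). Inhibitory neuron markers had a median of -0.04, which was -0.03 without the libraries high in striatal markers and 0.07 without Hq-mut 3. Dlx1, a homeobox gene on that list, was at 0.29 (SE 0.10, edgeR adjusted p = 0.45). Of 22 genes of synaptic vesicle machinery, 2 were at an unadjusted p under 0.05, both lower (9.09% against 10.4%), with a median of -0.20 and Rab3a, a vesicle GTPase gene, at -0.25 (SE 0.10, edgeR adjusted p = 0.458). Their median was -0.13 without Aifm1-KI 2 and -0.06 without the libraries high in striatal markers.

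Immediate early genes, which neuronal firing switches on, were lower in both mutants for 14 of 18. Medians were -0.37 for the knock-in and -0.13 for Harlequin, 3 were at an unadjusted p under 0.05 for the shared effect (16.7% against 9.66% of all genes tested) and 0 for the difference, and 0 were called. Without Hq-WT 4 the median Harlequin effect was 0.02, so its direction rests on pair 4. Nr4a2, an orphan nuclear receptor gene, had the smallest p for the difference (0.97, SE 0.45, edgeR adjusted p = 0.48), with a range of 36.8 to 142 CPM in Hq-WT. The median difference of -0.14 was 0.22 without the libraries high in striatal markers and ran from -0.46 without Hq-WT 4 to -0.01 without Aifm1-WT 4.

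Pericyte markers and blood genes were lower in both mutants for most members, and endothelial markers had medians of -0.26 and 0.07, with 4 of 12 at an unadjusted p under 0.05 for the shared effect, all lower (33.3% against 9.66%), and 2 for the difference, both lower (16.7% against 10.4%). The endothelial Harlequin median was -0.03 without Hq-WT 2 or Hq-mut 2. Pecam1, an endothelial junction gene, had a difference of -0.41 (SE 0.13, edgeR adjusted p = 0.45). Pericyte and smooth muscle markers had medians of -0.33 and -0.23, with 7 of 9 lower in both mutants, 3 at an unadjusted p under 0.05 for the shared effect (33.3% against 9.66%), and Rgs5, a pericyte signalling regulator, at -0.08 (SE 0.09) and -0.34 (SE 0.09). Haemoglobin and heme genes of blood had medians of -0.32 and -0.50, the latter -0.24 without Hq-WT 3, with 4 of 5 lower in both, and Hba-a2, an alpha globin gene, at -0.32 (SE 0.19) and -0.87 (SE 0.19).

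Choroid plexus, liver and striatal markers had the largest list medians, in either direction, for each single mutation effect. For the difference, choroid plexus and liver markers had the largest. Striatal markers were higher in both mutants for 12 of 12, with medians of 1.11 and 0.75 and 11 at an unadjusted p under 0.05 for the shared effect (91.7% against 9.66% of all genes tested). The Harlequin median was 0.23 without Hq-WT 3 or Hq-mut 3, 2 of 12 had an unadjusted p under 0.05 for Harlequin, and Hq-mut 2, at a sum of 373 CPM, was not above its pair. Pde10a, a phosphodiesterase gene of striatal neurons, had a difference of 0.61 (SE 0.30, edgeR adjusted p = 0.499). Choroid plexus markers had a median difference of 3.05 that was -0.68 without Aifm1-KI 2 and Hq pair 2, with Sostdc1 at 38.9 CPM in Hq-WT 2 and 14.2 CPM in Aifm1-KI 2 against 0.213 to 3.12 CPM in the others. Liver transcripts had a median of -2.84, and -0.34 without Aifm1-WT 1 and 2, with Cps1, a urea cycle enzyme gene, at 5.69 and 6.93 CPM in those and up to 1.09 CPM elsewhere. Hippocampal markers had a median difference of 0.26, with 6 of 8 higher, and -0.07 without the libraries high in striatal markers. Only 1, Tdo2, had an unadjusted p under 0.05 (12.5% against 10.4% of all genes tested), and it went the other way (-1.97, edgeR adjusted p = 0.45). Tdo2 also stood high in Aifm1-WT 1 and 2, at 5.69 and 6.72 CPM against 0.754 to 1.94 CPM. Thalamic markers had a median difference of 0.39, with 3 of 6 higher. At an unadjusted p under 0.05, 2 were higher and 1 lower (50% against 10.4% of all genes tested). Tnnt1, a thalamic marker that went against that median, was at 2.34 ± 0.318, 1.2 ± 0.268, 2.57 ± 0.645 and 2.63 ± 0.759 CPM in Aifm1-WT, Aifm1-KI, Hq-WT and Hq-mut (SD, n = 4 each), a difference of -1.03 (SE 0.27, edgeR adjusted p = 0.45). Meningeal markers had a median difference of -0.05, with 5 of 11 higher and 6 lower. Only 1 was at an unadjusted p under 0.05, higher (9.09% against 10.4% of all genes tested). The meningeal matrix gene Dcn had a difference of 1.37 (SE 0.61, edgeR adjusted p = 0.477).

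The wild types from which both effects start were not equal. Of 18106 genes tested in the 8 wild-type libraries, 101 passed (0.558%), 41 higher in Hq-WT and 60 lower. Without Aifm1-WT 1 and 2 that number was 20. Among the genes named outside the lists, Slco1c1 had the lowest adjusted p between wild types (0.45, edgeR adjusted p = 0.0834), and Prkg2 the next (0.49, edgeR adjusted p = 0.113). Of the list members named, C3 passed (-4.38, edgeR adjusted p = 0.0465). Genes next to Aifm1 on the X chromosome had a median difference of 0.02 over 15 tested, within -0.01 to 0.07 with single libraries left out, and 1 at an unadjusted p under 0.05: Smarca1, a chromatin remodeller gene, at 0.34 (SE 0.15, edgeR adjusted p = 0.477). Each line was set only against its own littermates, and between the wild types the stock and any batch of the line cannot be told apart.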

How the data were processed

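The deposited values are raw read counts per Ensembl gene. Per the series' design text, the authors trimmed reads, mapped them to mm10 with STAR (2.6, per the submitters' processing notes) and counted them with htseq-count; strand setting and annotation release: not given in the sources used here. All 16 libraries entered 1 edgeR 4.0.16 fit (TMM, default filter on low counts, quasi-likelihood F-test) with 1 intercept for the Aifm1 line, 1 per Hq pair, and both effects. Deviations from group means correlated at 0.40, 0.49, 0.36 and 0.43 within same-numbered Hq libraries, which were therefore paired, and at -0.02 to 0.08 in the Aifm1 line, which was not. Wild types had a separate fit. P values are Benjamini-Hochberg adjusted over all genes tested, and called means under 0.05. SE was obtained from the log2 fold change and F, as their quotient after taking the root of F. On simulated counts of 18931 genes the difference was recovered for 82 of 100 genes changed by 1 log2 unit and 97 of 100 changed by 2. Changed genes were drawn only from those with higher counts. All were changed in the same simulated set, which makes a low adjusted p easier to reach. These shares therefore check the fit and do not give the share of true differences found in these libraries. Symbols, positions and sequences are from GENCODE M21 (GRCm38).

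The comparison and the 34 gene lists (598 genes, counted only where they passed the filter) were chosen with earlier results of these data known. Genes were named by rule: Aifm1, up to 12 called genes per direction, or the 6 of smallest p, leaving out predicted genes and mean log2 CPM values under 0, and per list the called members or the smallest p. A gene that the rule names is not reported here. Alternatives were other size factors, filters, tools and blocks, libraries left out and a striatal covariate, with DESeq2 1.42.0 and limma 3.58.1 in R 4.3.3.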

Additional observations from a re-analysis of the deposited data

Results flagged for a closer look

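The effects of the mutations differed, by the test of the difference itself, for Aifm1, at 2.96, and for Gm6166, at -2.2 on the log2 scale. In 6 of 96 groups of 4 libraries checked for named genes, 1 library lay far from the other 3, where chance gives about 5%. Cadm1 was at 256 CPM in Aifm1-WT 4 against 242 to 243 CPM in the others of its group, and Prkg2 at 18.9 CPM in Aifm1-WT 3 against 17.6 to 17.7 CPM. Uap1l1 was at 14.4 CPM in Hq-WT 2 against 9.4 to 9.75 CPM, and Tnr at 146 CPM in the same library against 254 to 274 CPM. Angpt2 was at 1.98 CPM in Aifm1-KI 1 against 3.15 to 3.38 CPM, and Cnpy1 at 2.83 CPM in Hq-WT 3 against 0.098 to 0.11 CPM. Among summed marker lists, 3 of 60 groups held such a library, all for choroid plexus: 777 CPM in Aifm1-WT 4 against 256 to 316 CPM, 3800 CPM in Aifm1-KI 2 against 204 to 277 CPM, and 6340 CPM in Hq-WT 2 against 183 to 429 CPM.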

How the results depend on the processing

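Aifm1 was called for the difference under 28 of 28 alternatives and Gm6166 under 27. Counts of genes called for the difference, 2, were 19 with DESeq2, 26 with edgeR's likelihood ratio test, 1 without the libraries high in liver transcripts, and 2 to 3 with single libraries left out. For the shared effect, 7, they were 14 with no filter on low counts, 97 with DESeq2, 120 with the likelihood ratio test, 2 without the libraries high in striatal markers, 1 without those high in liver transcripts, 1 with the striatal covariate, 4 without those high in choroid plexus markers (chosen after seeing the data), and 2 to 47 with single libraries left out. For the knock-in, 0, they were 229 with no filter, 137 with DESeq2, 228 with the likelihood ratio test and 0 to 667 with single libraries left out. For Harlequin, 3, they were 8, 39 and 32 with the same settings, 7 and 10 without the libraries high in striatal or choroid plexus markers, 9 with the covariate, and 2 to 5 with single libraries left out. For the wild types, 101, they were 560 with no filter, 421 with DESeq2, 20 without the libraries high in liver transcripts and 32 to 231 with single libraries left out. The cause of these changes was not tested.

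With no replicate block, 2 genes were called for the difference, 3 for the shared effect, 0 for the knock-in and 3 for Harlequin; Cd93, Angpt2 and Maf then had shared adjusted p values of 0.648, 0.648 and 0.796. With a replicate block in both lines the counts were 2, 6, 19 and 3, and a replicate block across the wild types called 99. Of 1766 values of named genes, 90 lost and 45 gained a call, and none changed sign. Of 3876 list medians, 63 moved by more than the spread between replicates, and some list medians changed sign. Without the libraries high in striatal markers the median difference became 0.02 for excitatory neuron markers, -0.06 for mitochondrially encoded genes and 0.22 for immediate early genes. Without those high in choroid plexus markers it became -0.68 for choroid plexus markers.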
